A study of Mus musculus with 8 samples.

Results

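Cytotoxic granules hold proteases on a proteoglycan matrix, and the cells that make them also make inhibitors of those proteases. The genes described here are 7 such genes out of 49315 in the count files, taken by symbol from a list: Srgn (the matrix core protein), Nkg7 (a granule membrane protein), the clade B serpins Serpinb6a, Serpinb6b and Serpinb9, the clade A serpin Serpina3g, and the cystatin Cst7. The libraries were made from mouse OT-I CD8 T cells, whose transgenic receptor recognises an ovalbumin peptide on MHC class I, and all carried the CD45.1 allele by the labels. The 4 control libraries (Control KO; WT) came from cells nucleofected with Cas9 and a crRNA against LacZ, a bacterial gene that mouse cells lack, and the 4 Carm1 KO libraries from cells given a crRNA against Carm1, which encodes an enzyme that methylates arginines of histones and coactivators. Cells of both groups had been isolated as naive CD8 T cells from spleen and inguinal lymph node, kept in 2.5 ng/ml IL-7 and 50 ng/ml IL-15, and lysed 7 days after editing. Loss of the Carm1 protein had been checked by western blot, per the labels. The series text speaks of co-culture with B16F10-Ova melanoma cells, which the sample protocols do not describe. The 4 libraries of a group are called technical replicates, and the labels state neither the number of cultures or mice nor their age, so p-values measure the spread between these libraries, which may be technical.

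Serglycin, the product of Srgn, carries sulfated sugar chains whose negative charge holds granzymes and perforin in the granule until release. Serpins are suicide substrates that trap a protease in a covalent complex, and clade B serpins lack a classical signal peptide and act in the cytosol and nucleus, where they meet proteases that leak from granules. Cystatins block cysteine cathepsins, the lysosomal proteases that among other roles remove the propeptide of granzymes.

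Total counts ran from 38768760 to 41439998 in control and from 37556330 to 39988442 in Carm1-edited libraries. Carm1 itself fell from 95.9 ± 1.04 to 32.8 ± 0.493 CPM (the count over the TMM-corrected library size, set to a fixed sum; mean ± SD, n = 4 per group), a log2 fold change of -1.55 ± 0.03 (SE; edgeR quasi-likelihood test, adjusted p = 1.6e-37). All adjusted p-values below are from that test across 14970 genes. So many genes differed that a call says little by itself: 87.7% of the tested genes passed the adjusted threshold of 0.05, 44.5% higher and 43.2% lower in Carm1-edited libraries. The groups did not overlap for 83.4% of tested genes, and 35.7% passed with at least a 2-fold change. The scaling also mattered, since the median of all log2 fold changes shifted up by 0.215 under upper-quartile factors and by 0.160 under plain library totals. Of the called genes, 50.8% were higher under TMM factors but 61.0% under upper-quartile ones.

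Against that background, 7 of 7 genes passed the test and 7 of 7 had groups that did not overlap. Among them 4 were higher in Carm1-edited libraries (Serpinb6b, Serpinb6a, Cst7 and Srgn) and 3 were lower (Nkg7, Serpinb9 and Serpina3g), although Serpina3g turned higher under upper-quartile factors and library totals. Only Serpinb6b, Serpinb6a and Cst7, 3 of 7, moved by at least 2-fold. The median log2 fold change was 0.30 over the 7 genes and 0.02 over all tested genes. Because the libraries are bulk RNA, fewer cells of a type and less RNA per cell cannot be told apart in any of these values.

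**Figure D1:**
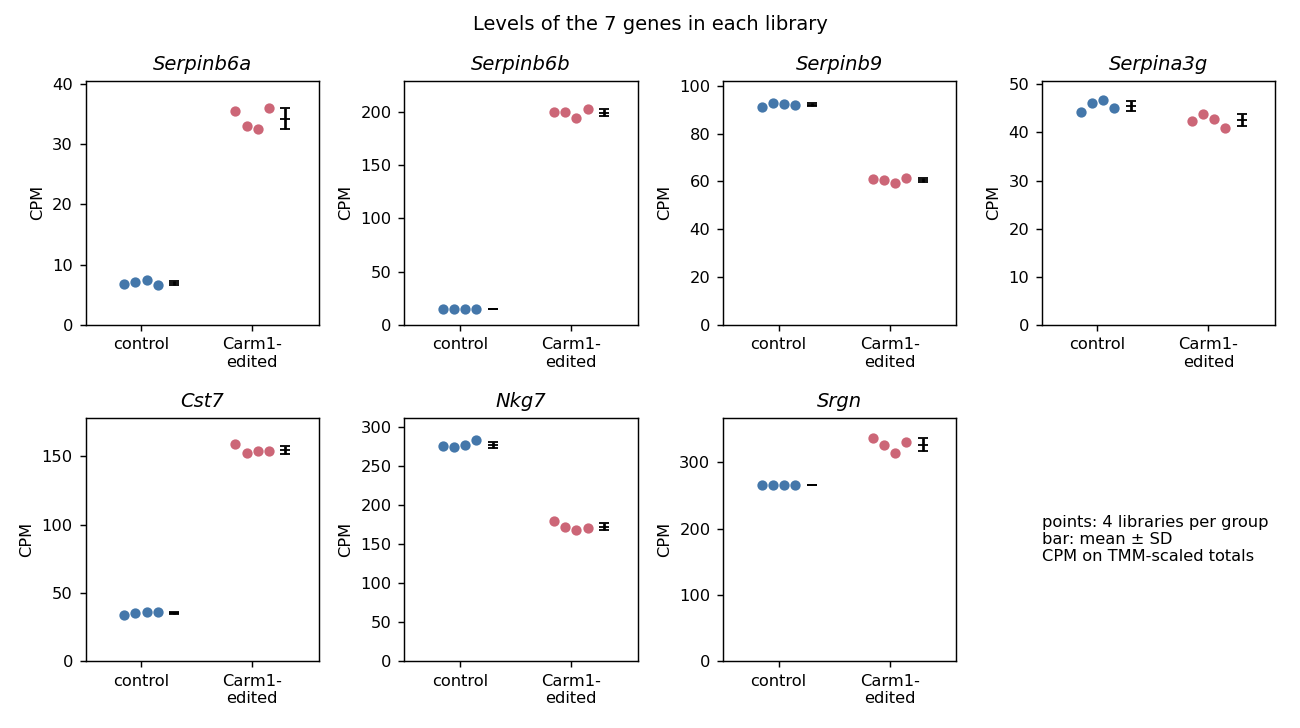
Level of each gene in every library, in CPM on linear axes from 0; points are the 4 control and the 4 Carm1-edited libraries and bars are mean ± SD. Serpinb6b rises from about 14.8 to 199 CPM, while for Serpina3g the groups lie at 45.5 and 42.5 CPM.

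The matrix core protein gene Srgn (ENSMUSG00000020077, mm10 chromosome 10, 62493833 to 62527451, minus strand) was among the 2 genes of the 7 with the most counts. Its coding sequence holds the serine-glycine repeat to which the sugar chains are attached, shown here because it is the feature that makes the protein a matrix. Bases 250 to 345 of the 456-base coding sequence (GENCODE M21, GRCm38) contain 10 consecutive serine-glycine codon pairs, in capitals.
Srgn: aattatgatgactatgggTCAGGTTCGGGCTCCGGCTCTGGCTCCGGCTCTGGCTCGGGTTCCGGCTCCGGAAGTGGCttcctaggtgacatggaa

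Each of the 4 control libraries had 266 CPM of Srgn, and the Carm1-edited libraries had 336, 325, 313 and 330 CPM. The control libraries were thus nearly equal and every Carm1-edited library lay above them. The rise was 1.23-fold, from 266 ± 0.312 to 326 ± 9.66 CPM (edgeR adjusted p = 1.6e-15, log2 fold change 0.30 ± 0.02). This change stands at percentile 60.8 of all tested genes, inside the range where most genes lie.

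Enzymes that build the chondroitin sulfate chains of serglycin moved in both directions. Of 25 listed genes 21 were tested, with 8 higher, 9 lower and 4 not past the threshold; the median difference was -0.01 on the log2 scale. With upper-quartile factors the same list gave 13 higher and 5 lower, so its balance depends on the scaling. B3galt6, which adds a galactose of the linker between protein and chain, fell from 26.2 to 5.64 CPM (-2.21 ± 0.05), and Chpf, a chain polymerising factor, fell from 60.0 to 23.1 CPM (-1.38 ± 0.03). The sulfotransferases Chst12 (17.7 to 35.5 CPM, 1.00 ± 0.04) and Chst15 (17.9 to 36.8 CPM, 1.04 ± 0.04) rose. These 4 kept their direction under every scaling tried.

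Nkg7 (ENSMUSG00000004612, chromosome 7, 43437073 to 43438249, plus strand) encodes a membrane protein of cytotoxic granules that is needed for efficient release of their content. It was read at 275, 274, 276 and 282 CPM in the control libraries and at 179, 172, 168 and 170 CPM in the Carm1-edited ones. Every Carm1-edited library was below every control library. The fall was 1.61-fold, from 277 ± 3.81 to 172 ± 4.81 CPM (edgeR adjusted p = 1.2e-27, log2 fold change -0.68 ± 0.02), which is percentile 22.8 of all tested genes.

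Other genes of the granule membrane, its formation and its release gave no common direction. Of 29 listed genes 28 were tested, with 11 higher, 11 lower and 6 not past the threshold (median 0.03); with upper-quartile factors 17 were higher and 8 lower. Sytl1, an effector of Rab27 in vesicle docking, rose from 33.7 to 97.6 CPM (log2 fold change 1.53 ± 0.03), and Stxbp2, a syntaxin partner needed for granule fusion, rose from 112 to 186 CPM (0.74 ± 0.03). The cation-dependent mannose 6-phosphate receptor gene M6pr, whose product sorts enzymes to lysosomes, fell from 233 to 140 CPM (-0.73 ± 0.02). Vti1b, a SNARE protein gene, fell from 87.5 to 55.1 CPM (-0.67 ± 0.03). Lamp1, a common marker of granule membrane, was 163 ± 1.92 in control and 165 ± 2.68 CPM in Carm1-edited libraries and did not pass (log2 fold change 0.02 ± 0.02, adjusted p = 0.36, edgeR). It was called higher with upper-quartile factors (0.237, adjusted p = 2.6e-12, edgeR), library totals alone (0.182, adjusted p = 5.7e-09) and genes of at least 5 CPM only (0.115, adjusted p = 2e-05).

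The 3 clade B serpin genes lie in the same region of chromosome 13 and did not move in 1 direction. Serpinb6b (ENSMUSG00000042842, 32965209 to 32979067, plus strand) and Serpinb9 (ENSMUSG00000045827, 33003250 to 33017957, plus strand) are separated by 24.2 kb, and Serpinb6a (ENSMUSG00000060147, 33917918 to 34002794, minus strand) lies 900 kb beyond Serpinb9. Serpinb6a and Serpinb6b are close paralogs with 86.4% identity over their aligned coding bases, whereas Serpinb9 shares 69.0% with Serpinb6a and 69.1% with Serpinb6b. The longest stretch shared by Serpinb6a and Serpinb6b, 57 bases, is shown with 20 bases on each side because reads there decide whether the 2 genes can be counted apart. Capitals mark the 16 bases that differ, from base 533 to 629 of the Serpinb6a and from base 470 to 566 of the Serpinb6b coding sequence.
Serpinb6a: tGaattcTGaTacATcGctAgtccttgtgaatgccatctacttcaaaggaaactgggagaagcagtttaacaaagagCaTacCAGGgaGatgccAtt
Serpinb6b: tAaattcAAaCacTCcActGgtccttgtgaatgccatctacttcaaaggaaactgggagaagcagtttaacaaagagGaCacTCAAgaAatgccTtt

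The shared run is shorter than the 150-base reads. No window of 150 bases in Serpinb6b, Serpinb9, Serpina3g, Cst7, Nkg7 or Srgn transcripts occurred in a transcript of another gene. In Serpinb6a 15.96% of such windows did, all of them in genes on the opposite strand whose exons overlap its own (Nqo2, 1110046J04Rik and Ripk1). The library kit does not mark strand, so reads of those exons cannot be assigned to 1 gene. Ripk1, the most abundant of the 3, shares 4.46% of the Serpinb6a exon length and fell from 91.5 to 47.3 CPM. Nqo2 shares 14.1% and rose from 1.599 to 3.44 CPM.

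Serpinb6b, a mouse serpin known to inhibit granzyme A, had the largest difference of the 7 genes. Control libraries had 14.9, 14.3, 14.8 and 15.1 CPM, and Carm1-edited libraries had 199.8, 200.4, 194 and 203 CPM. No library of either group came near the other group. The rise was 13.5-fold, from 14.8 ± 0.320 to 199 ± 3.45 CPM (edgeR adjusted p = 4.9e-49, log2 fold change 3.75 ± 0.03), at percentile 97.8 of all tested genes.

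Serpinb6a, which encodes a cytosolic inhibitor of trypsin-like and other serine proteases, had the fewest counts of the 7 in both groups. Control libraries had 6.69, 7.15, 7.35 and 6.52 CPM and Carm1-edited libraries 35.6, 33.0, 32.5 and 36.0 CPM. The groups were again far apart. Its mean rose 4.94-fold, from 6.93 ± 0.388 to 34.3 ± 1.76 CPM (edgeR adjusted p = 6.5e-34, log2 fold change 2.31 ± 0.05), at percentile 93.2.

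Serpinb9, the inhibitor of granzyme B that shields cytotoxic cells from their own protease, fell. It was read at 91.2, 92.7, 92.4 and 92.1 CPM in control and at 61.0, 60.4, 59.4 and 61.5 CPM in Carm1-edited libraries. All Carm1-edited libraries were lower than all control libraries. The fall was 1.52-fold, from 92.1 ± 0.670 to 60.6 ± 0.917 CPM (edgeR adjusted p = 1.2e-24, log2 fold change -0.60 ± 0.02), at percentile 25.2.

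Most other clade B serpin genes were too low to test. Of 25 listed genes 3 were tested, and 2 rose and 1 fell. Serpinb1a, an inhibitor of neutrophil-type serine proteases, rose from 5.05 to 24.01 CPM (log2 fold change 2.25 ± 0.05). Serpinb5 (0.132 to 0.398 CPM) rose and Serpinb9b (0.912 to 0.324 CPM) fell, both with group means below 1 CPM.

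Serpina3g (ENSMUSG00000041481, chromosome 12, 104236245 to 104241939, plus strand) encodes an inhibitor of lysosomal cathepsins that protects T cells when lysosomes leak. Its levels were 44.3, 46.0, 46.7 and 45.1 CPM in control and 42.3, 43.9, 42.9 and 40.9 CPM in Carm1-edited libraries. The groups did not overlap but nearly touched. The means, 45.5 ± 1.04 and 42.5 ± 1.24 CPM, differed 1.07-fold (log2 fold change -0.10 ± 0.03, adjusted p = 0.0041, edgeR). The sign of this difference was set by the scaling: with upper-quartile factors it was 0.117 (adjusted p = 0.00087), with library totals alone 0.0621 (adjusted p = 0.069), and with genes of at least 5 CPM only -0.00512 (adjusted p = 0.87). Of the 10 other genes of its cluster only Serpina3f was tested, and it rose from 9.32 to 24.8 CPM (log2 fold change 1.41 ± 0.05); its coding sequence is 87.4% identical to that of Serpina3g. At 75 bases, 7.69% of Serpina3g windows occurred in other genes of the cluster.

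Cst7 (ENSMUSG00000068129, chromosome 2, 150570415 to 150578944, plus strand) encodes cystatin F, a cathepsin inhibitor delivered to lysosomes and granules. Control libraries had 34.3, 35.2, 36.2 and 36.0 CPM and Carm1-edited libraries 159, 153, 154 and 154 CPM. The groups were wide apart and even within themselves. The rise was 4.37-fold, from 35.4 ± 0.889 to 155 ± 2.76 CPM (edgeR adjusted p = 1.4e-42, log2 fold change 2.13 ± 0.03), at percentile 92.1. Among 19 other cystatin and stefin genes 3 were tested. Cst3, a secreted cystatin, rose from 53.8 to 61.1 CPM (0.18 ± 0.03), Cstb, a cytosolic stefin, fell from 39.9 to 30.7 CPM (-0.38 ± 0.04), and Cst6 rose from 0.0335 to 0.421 CPM.

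**Figure D2:**
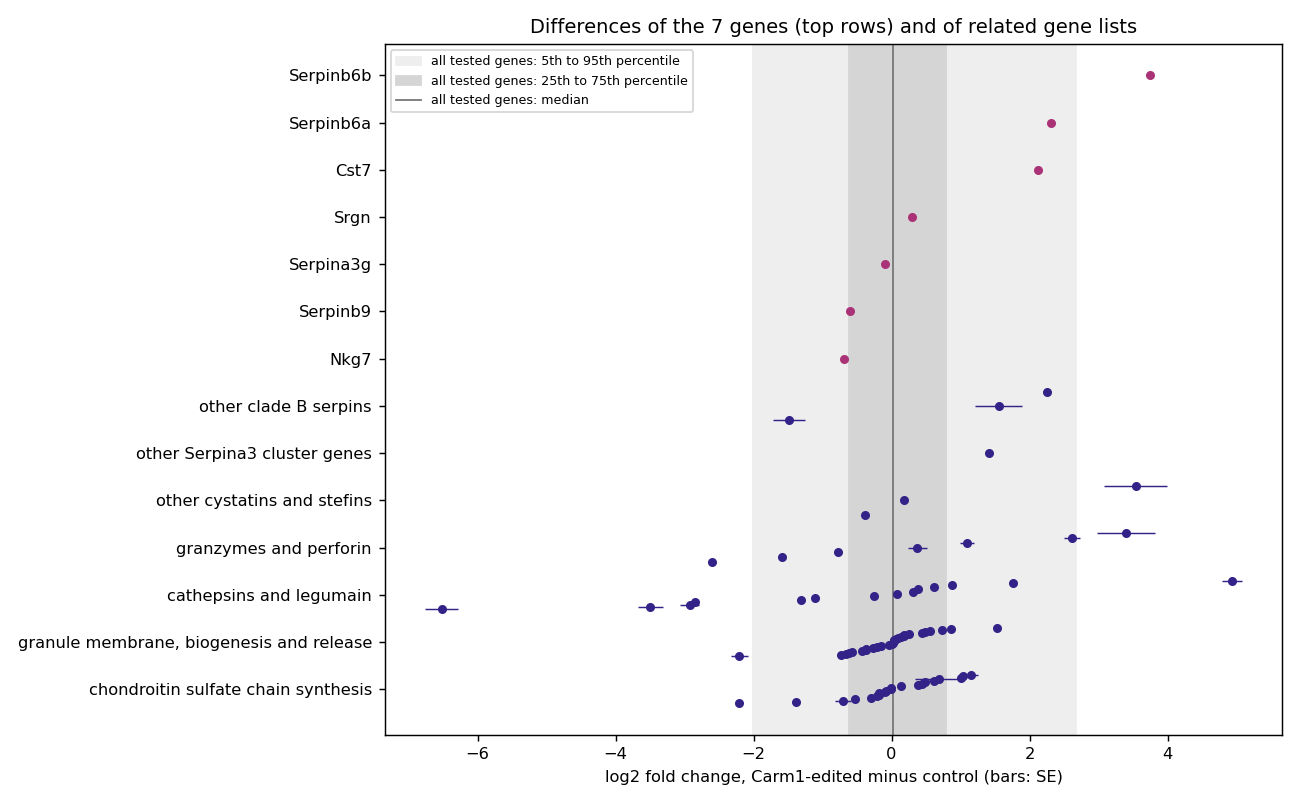
Log2 fold change (Carm1-edited minus control; bars are SE) of the 7 genes in the upper rows and of the tested genes of 7 related lists below; light and dark bands span the 5th to 95th and 25th to 75th percentiles of all tested genes and the line is their median. Serpinb6b lies outside the light band, Serpinb6a and Cst7 lie between the bands' upper edges, and Srgn, Serpina3g and Serpinb9 lie in the dark band. Gzmd, Gzme and Gzmg are left out because they had 0 counts in the control libraries.

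Granzyme, perforin and cathepsin genes, some of them partners of the 7 genes, moved as well. All 10 granzyme and perforin genes were tested, and 7 rose and 3 fell. Their median difference was 1.86 on the log2 scale, but the 3 that fell had the most counts. Gzmb, the main apoptosis-inducing granzyme, fell from 1788 ± 20.5 to 294 ± 6.46 CPM (-2.60 ± 0.02), Gzma from 77.9 ± 1.19 to 45.6 ± 1.83 CPM (-0.77 ± 0.03), and the pore-forming perforin gene Prf1 from 52.9 ± 0.697 to 17.6 ± 0.467 CPM (-1.58 ± 0.04). Of the 7 that rose, Gzmk (0.951 to 5.85 CPM) had the highest CPM in Carm1-edited libraries and Gzmc (2.04 to 4.38 CPM) in control, and Gzmd, Gzme and Gzmg had 0 counts in all control libraries. Cathepsin and legumain genes were divided, with 7 of 14 tested genes higher and 7 lower (median -0.08). Ctsb (161 ± 4.55 to 199.99 ± 3.003 CPM, 0.31 ± 0.02) and Ctsl (9.45 ± 0.691 to 31.9 ± 1.43 CPM, 1.76 ± 0.05) rose. Ctsc, the cathepsin that activates granzymes, fell from 105 ± 3.63 to 87.9 ± 1.00 CPM (-0.25 ± 0.03), a call lost with upper-quartile factors (adjusted p = 0.21, edgeR).

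Ratios within a library do not depend on the scaling between libraries, so 9 ratios of a gene to its partner were compared, on counts per kilobase. In all 9 the groups did not overlap, and each gave p = 0.0286 in an exact two-sided permutation test (adjusted p = 0.0286 over the 9), the smallest value that 4 against 4 libraries allow. Groups did not overlap for 83.4% of single tested genes either, and the share over other gene pairs was not computed. The separation therefore says little about these pairs by itself. Serpinb6b over Gzma was 0.0769, 0.0724, 0.0749 and 0.0786 in control and 1.68, 1.74, 1.80 and 1.76 in Carm1-edited libraries, so the inhibitor transcript went from below to above that of the protease. The log2 difference of this ratio was 4.53, or 23.1-fold. Serpinb9 over Gzmb was 0.0209, 0.0209, 0.0211 and 0.0206 in control and 0.0819, 0.0832, 0.0841 and 0.0854 in Carm1-edited libraries. That ratio rose 4.00-fold although Serpinb9 itself fell, since Gzmb fell further.

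The cystatin F transcript rose against the transcripts of the 2 partner proteases compared. Cst7 over Ctsc went from a geometric mean of 2.00 to 10.4 (log2 difference 2.38), and Cst7 over Ctsl from 7.51 to 9.71 (0.37). Serpina3g over Ctsb fell from 0.637 to 0.479 (-0.41), in a measure that no library scaling touches. Under TMM factors most of this came from the rise of Ctsb (log2 fold change 0.31), against -0.10 for Serpina3g. The ratio therefore does not show that Serpina3g itself fell. The matrix transcript rose against 2 transcripts of its cargo: Srgn over Gzmb went from 0.0961 to 0.717 (2.90) and Srgn over Prf1 from 4.71 to 17.3 (1.88). Nkg7 over Lamp1 fell from 4.97 to 3.05 (-0.71). Between the paralogs, Serpinb6b over Serpinb6a rose from 5.25 to 14.3 (1.45). These 2 levels depend on the length given to Serpinb6a, 5409 bases here against 1654 in its longest coding transcript. The log2 difference does not depend on length and was also 1.45 on counts not divided by length.

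**Figure D3:**
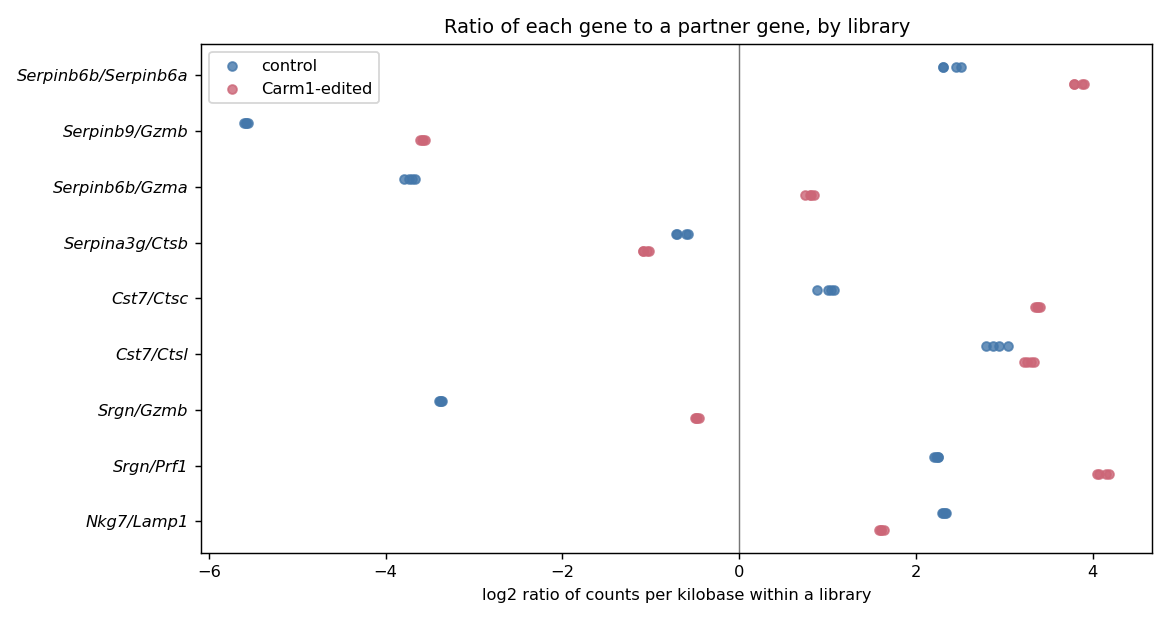
Log2 ratio of each gene to its partner, on counts per kilobase, in the 4 control and 4 Carm1-edited libraries; each point is 1 library. Serpinb6b over Gzma shows the widest gap, 4.53 on the log2 scale, and Cst7 over Ctsl the narrowest, 0.37.

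Levels between genes were compared per exon length as TPM (length-scaled counts set to a common total, from the counts and the exon length in the files). The 7 genes summed to 1282 ± 26.5 TPM in control and 1616 ± 37.8 TPM in Carm1-edited libraries (ranges 1254 to 1313 and 1571 to 1661, n = 4 each). In all 4 control libraries the order was Nkg7, Srgn, Cst7, Serpinb9, Serpina3g, Serpinb6b, Serpinb6a, with means of 753, 301, 89.3, 65.5, 53.7, 16.7 and 3.18 TPM. In all 4 Carm1-edited libraries it was Nkg7, Cst7, Srgn, Serpinb6b, Serpina3g, Serpinb9, Serpinb6a, with means of 485, 404, 382, 233, 52.0, 44.6 and 16.3 TPM. Neighbours in these orders did not overlap between libraries, except Cst7 (391 to 413 TPM) and Srgn (376 to 392 TPM) in the Carm1-edited group, where Cst7 was above Srgn within each library. In TPM the Serpina3g groups overlapped, with 53.2 to 54.4 TPM in control and 48.6 to 55.3 TPM in Carm1-edited libraries.

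In shares of that sum, Nkg7 went from 58.7% ± 0.306 to 30.0% ± 0.325, Cst7 from 6.97% ± 0.131 to 24.98% ± 0.283, and Serpinb6b from 1.30% ± 0.0246 to 14.4% ± 0.247. Srgn held 23.5% ± 0.210 and 23.6% ± 0.291, which differ by less than the SD of either group; without division by length its shares were 36.1% ± 0.227 and 33.0% ± 0.323, a fall larger than that spread. Serpinb6b moved from rank 6246 to rank 518 by TPM among the 14970 tested genes, and Cst7 from rank 1764 to rank 303. The order depends on the length used. The files give Serpinb6a 5409 bases, over the exons of all its transcripts, while its longest coding transcript has 1654 bases. With the lengths of the longest coding transcripts, Srgn stood above Cst7 and Serpinb6a above Serpinb9 in the Carm1-edited libraries. Without division by length, Cst7 stood below Serpinb9 and Serpina3g in control, and the Carm1-edited order was Srgn, Serpinb6b, Nkg7, Cst7, Serpinb9, Serpina3g, Serpinb6a.

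**Figure D4:**
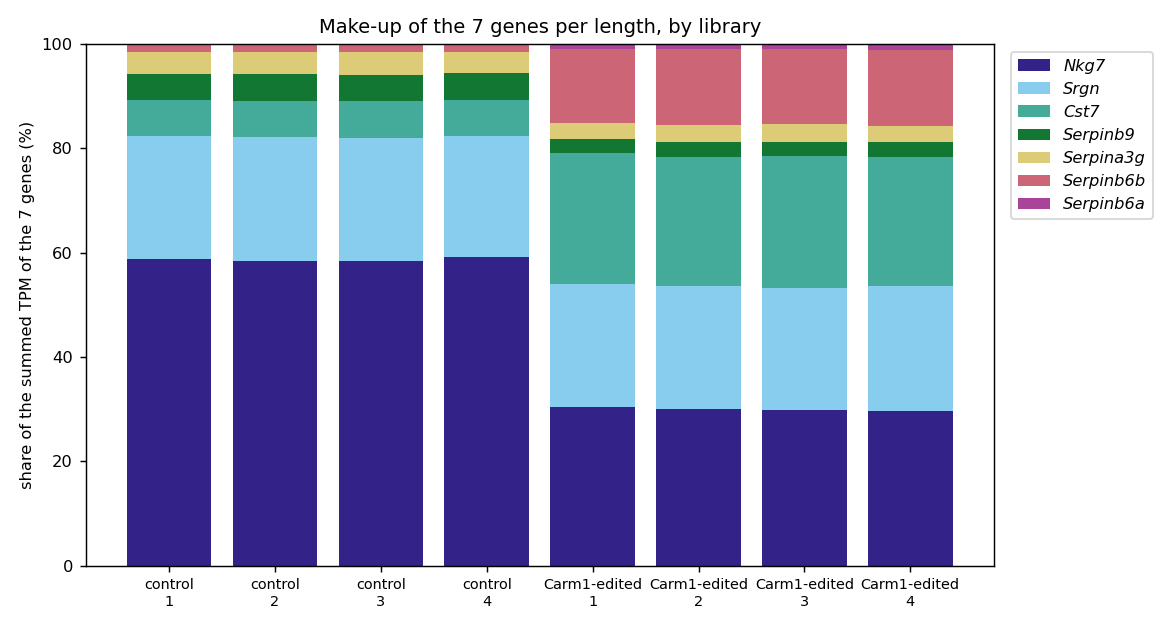
Share of each gene in the summed TPM of the 7 genes, in percent, for each of the 8 libraries as stacked bars from 0. Nkg7 makes up 58.7% on average in control and 30.0% in Carm1-edited libraries, and the parts of Cst7 and Serpinb6b widen.

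The genes whose pattern over the 8 libraries was most like that of each of the 7 were found by Euclidean distance between log2 CPM values centred on each gene's mean, among 8474 genes with a mean of at least 10 CPM. For Serpinb6b they were Spock2 (distance 0.141) and Cxcr5 (0.149), for Serpinb6a Ppcdc (0.136) and Dap (0.154), and for Cst7 Hscb (0.0761) and Cd72 (0.0930). For Nkg7 they were Mrpl15 (0.0295) and Isoc1 (0.0429), for Serpinb9 Ociad1 (0.0286) and Vdac2 (0.0392), for Srgn Polr3c (0.0263) and Gdi2 (0.0385), and for Serpina3g Cdk16 (0.0273) and Fbxw11 (0.0422). Libraries of a group were close to each other, so this distance mostly compares the size of the group difference. Nkg7 and Mrpl15, for example, had log2 fold changes of -0.685 and -0.683. None of these 14 nearest genes is another of the 7. The 7 differ from one another in log2 fold change, so that absence says little, and shared regulation was not tested.

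Promoters are shown for the 2 genes with large rises that have no exon overlap, Serpinb6b and Cst7, and for Nkg7, which fell. They are the 250 bases before the RefSeq transcription start (GRCm38.p6, read on the gene's strand, plus for all 3), and all 7 genes had an entry. RefSeq starts can lie downstream of the first base in the count files. Capitals mark matches to 6 short motifs searched on both strands: RUNX TGTGGT, T-box GGTGTGA, STAT TTCNNNGAA, AP-1 TGANTCA, TCF CTTTGA and ETS CCGGAA.
Serpinb6b, chr13:32965011-32965260: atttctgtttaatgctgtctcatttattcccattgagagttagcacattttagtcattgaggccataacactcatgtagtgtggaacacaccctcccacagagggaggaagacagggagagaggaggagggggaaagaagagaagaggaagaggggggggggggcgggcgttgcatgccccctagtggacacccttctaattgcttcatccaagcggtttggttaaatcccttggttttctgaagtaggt
Cst7, chr2:150570165-150570414: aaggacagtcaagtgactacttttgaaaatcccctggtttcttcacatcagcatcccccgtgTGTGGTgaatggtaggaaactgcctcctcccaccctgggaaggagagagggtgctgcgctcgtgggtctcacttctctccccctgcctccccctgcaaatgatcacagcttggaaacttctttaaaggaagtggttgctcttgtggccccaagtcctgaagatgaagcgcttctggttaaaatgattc
Nkg7, chr7:43436888-43437137: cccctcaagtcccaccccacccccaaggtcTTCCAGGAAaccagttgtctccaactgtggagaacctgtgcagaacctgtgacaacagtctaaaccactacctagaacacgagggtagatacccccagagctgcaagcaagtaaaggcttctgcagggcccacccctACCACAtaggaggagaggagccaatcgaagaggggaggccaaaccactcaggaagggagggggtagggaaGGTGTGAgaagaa

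Cst7 held 1 RUNX match, at -188 from the start, and Nkg7 held a RUNX match on the reverse strand at -83, a T-box match at -13 and a STAT match at -220. Serpinb6b and Serpinb9 held no match to the 6 motifs in this window. Serpina3g held a RUNX and a STAT match. Serpinb6a held 1 STAT and 3 ETS matches at its outer start, where the STAT match overlaps an ETS match and the other 2 ETS matches overlap each other, and none at its inner start. Srgn held an ETS match at 1 start and a RUNX match at its other start. Of 32851 promoter windows of this length, 14.0% held the RUNX letters, 3.33% T-box, 7.02% STAT, 6.75% AP-1, 13.8% TCF and 12.0% ETS.

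Markers of T cells were high in every library, with summed levels of the 8 markers from 5533 to 5673 CPM in control and from 6991 to 7196 CPM in Carm1-edited libraries, and 7 of 8 rose. Thy1, the most abundant of the 8 in control, fell from 1663 to 1048 CPM. Markers of other cell types also moved, and their part in the results was not tested. The 8 myeloid markers all fell, from sums of 111 to 116 CPM to sums of 5.82 to 6.45 CPM, led by Lyz2 (83.1 to 0.148 CPM) and Csf1r (8.73 to 0.0373 CPM). Of 8 NK cell markers 7 were tested and all 7 fell, from 185 to 196 CPM to 20.9 to 24.01 CPM, most of it Eomes (173 to 17.7 CPM), which activated CD8 T cells also express. Of 7 neutrophil markers 5 were tested and fell, from 16.8 to 19.2 CPM to 0.168 to 0.426 CPM, with S100a8 and S100a9 at 0 in all Carm1-edited libraries. Most of the control sum was Mpo, which fell from 11.9 to 0.105 CPM. Of 8 mast cell and basophil markers 3 were tested and fell, from 7.62 to 9.34 CPM to 3.37 to 4.51 CPM, with Tpsab1 at 0 in all libraries.

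Of 8 B cell markers 4 were tested, and 3 rose and 1 fell, with sums of 274 to 281 CPM in control and 931 to 957 CPM in Carm1-edited libraries, nearly all of it Ighm (254 to 925 CPM). The 1 that fell was Igkc, from 17.5 to 0.306 CPM, so the sum does not stand for every B cell marker. The 4 CD4 T cell markers rose, from sums of 8.65 to 9.28 CPM to sums of 38.3 to 41.8 CPM, most of it Zbtb7b (4.82 to 33.7 CPM), while Cd4 went from 0.168 to 0.782 CPM and the Foxp3 groups overlapped. Dendritic cell markers were low in both groups (3.37 to 4.05 and 2.88 to 4.19 CPM). Red cell markers were at 4.76 to 5.29 CPM in control and at 0.167 to 0.451 CPM in Carm1-edited libraries. Of 8 melanoma markers, Tyr, Tyrp1, Dct, Sox10 and Slc45a2 were at 0 in all 8 libraries, and the 2 that were tested, Pmel (3.43 to 12.7 CPM) and Mitf, rose.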

How the data were processed

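RNA was measured in 8 libraries, grouped by source name, with 4 per group. The authors deposited whole-number counts per Ensembl gene with exon lengths, made with RSEM on mm10 per the labels. RSEM estimates need not be whole; how whole numbers arose, the aligner, the annotation and the strand setting are not stated there. The TruSeq kit does not mark strand. Symbols came from GENCODE M21 (48970 of 49315 identifiers).

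Counts were used as deposited. Genes were kept by filterByExpr (14970) and scaled with TMM factors (0.938 to 1.07). They were compared with edgeR 4.0.16 (quasi-likelihood, robust, in R 4.3.3) with Benjamini-Hochberg adjustment at 0.05. The step was run on simulated data in which few genes changed, unlike here, so that run cannot vouch for the scaling. Ratios were compared by exact permutation tests (scipy 1.17.1). Chi-square values per degree of freedom were 1.45 to 13.5 within and 418 to 447 between groups, so no library was a copy of another.

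The 7 genes and all lists were chosen with earlier results of these data known. Named genes were Carm1, the 7 genes, their partners, up to 4 per list with the smallest adjusted p, the 2 nearest patterns per gene and the 2 most abundant markers per cell type; Gzmc, Cd4, Foxp3 and genes named for exon overlap or for counts of 0 were chosen after their values were seen. Alternatives were RLE, upper-quartile and no factors, 2 other filters, limma-voom (limma 3.58.1), DESeq2 1.42.0, the replicate block, mitochondrial genes left out, each library left out, and for levels other lengths, of which the longest coding transcript was chosen after seeing the data.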

Additional observations from a re-analysis of the deposited data

How the results depend on the processing

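Serpinb6a, Serpinb6b, Serpinb9, Cst7, Nkg7 and Srgn kept their direction and their call under all 17 alternatives, with log2 fold changes from 2.27 to 2.52, 3.73 to 3.97, -0.63 to -0.39, 2.10 to 2.34, -0.71 to -0.47 and 0.27 to 0.51. Serpina3g turned to 0.117 with upper-quartile factors and 0.0621 with library totals alone, and was -0.00512 with a filter of at least 5 CPM; leaving out single libraries gave -0.123 to -0.0864. Lamp1, not called, was -0.00365 with no filter and was called higher with upper-quartile factors (0.237), library totals alone (0.182) and the 5 CPM filter (0.115). Genes called over the whole table numbered 9397 (filter of at least 5 CPM, 10171 tested) to 15400 (no filter, 28269 tested), and 13155 to 13233 with a library left out. With a replicate block 13031 were called; same-numbered libraries deviated with correlations of -0.051 to -0.085, so the numbers do not pair them, and the block changed no call of the 7 genes. For the ratios, sign flips over number pairs cannot go below an exact p of 0.125 and say nothing about stability. The Srgn share of the 7 genes was 36.1% in control and 33.0% in Carm1-edited libraries without division by length, and 27.2% in both with the longest coding transcript. The Serpinb6a share was 0.940% and 3.46% without length, and 0.739% and 2.98% with that transcript. Low counts limit Serpinb6a, with 1037 counts over the 4 control libraries, and genes below 1 CPM.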

Other observations

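Several cathepsin genes and the legumain gene Lgmn, none with a ratio above, also moved. Ctsh fell from 4.22 to 0.0425 CPM and Lgmn from 3.07 to 0.269 CPM, while Ctsf rose from 0.246 to 7.63 CPM; these 3 were chosen after their values were seen. By the rule for named genes, Ctse fell from 99.3 to 13.7 CPM, Ctsz from 120 to 48.6 CPM and Ctss from 175 to 81.1 CPM, and Ctsw, a cathepsin of cytotoxic lymphocytes, rose from 152 to 278 CPM. Summed myeloid markers fell from 111 to 116 CPM in control to 5.82 to 6.45 CPM in Carm1-edited libraries, and their part in these falls was not tested.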
